A study of Homo sapiens with 12 samples.

Results

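BOK and 9 further genes of the BCL2 family (BCL2L1, MCL1, BAX, BAK1, BID, BAD, BBC3, PMAIP1 and BCL2L11) were followed in NCI-H1975, a line grown from a human adenocarcinoma of the lung. The rows of these genes were taken from the deposited value table by their gene symbols. All 10 genes had a row, 1 each, among 22395 named genes. The study asked how quinacrine, an acridine antimalarial, acts in cells that resist erlotinib, an inhibitor of the EGFR kinase. Every group shared the same cells, which carry a mutant EGFR labelled L858R/T790M, and each treatment and time was hybridised to 1 array. The groups were 4 combination arrays (1 µM erlotinib with 3 µM quinacrine for 6, 12, 24 or 48 h), 3 quinacrine arrays (3 µM for 6, 12 or 24 h), 4 erlotinib arrays (1 µM for 6, 12, 24 or 48 h) and 1 untreated array with no time in its label. No condition had a replicate, so the times of a treatment served as its arrays, and n counts times. A further quinacrine dose of 5 µM is named in the treatment protocol, but no array used here is labelled with it. Whether arrays came from separate cultures is not stated. A p-value here rests on spread among arrays of different times, not on replicates, and that spread may be partly technical. In bulk RNA, fewer cells of a kind and less RNA per cell cannot be told apart.

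Proteins of the BCL2 family decide whether the outer mitochondrial membrane is permeabilised, the step that releases cytochrome c and starts the caspases. BAX, BAK1 and BOK are effectors that can form the pores, and the guardians BCL2L1 (BCL-XL) and MCL1 hold BAX and BAK1 in check. The BH3-only proteins PMAIP1 (NOXA), BBC3 (PUMA), BCL2L11 (BIM), BID and BAD neutralise the guardians or activate BAX and BAK1. BOK differs from BAX and BAK1 in residing largely on the endoplasmic reticulum, where it binds inositol trisphosphate receptors and is kept low by proteasomal degradation. In cancers driven by mutant EGFR, induction of BIM is known as a step in killing by EGFR inhibitors.

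Levels are log2 values from robust multi-array averaging (RMA), so a difference of 1 is a factor of 2. Levels of different genes come from different probes and are not set against each other. A gene entered the tests when its mean over the 12 arrays was at least 5. Of the 10 genes, 6 passed (BOK, PMAIP1, MCL1, BCL2L1, BAK1 and BAX). BAD (mean 4.64), BID (4.58), BCL2L11 (4.08) and BBC3 (2.15) did not, and their tests come from a second fit of all 22395 named genes. The mean takes in the treated arrays, so the filter was not blind to treatment. The combination 6 h array stood apart from the rest. Over the 5820 tested genes, the median of its per-gene differences from the untreated array was -0.21. On the other treated arrays this median ran from -0.06 to 0.09. The epithelial markers CDH1, EPCAM, KRT19 and KRT7 had means of 10.31, 8.54, 8.29 and 7.42, whereas KRT18 (4.71) and KRT8 (2.81) lay below 5. All 8 measured markers of leukocytes, fibroblasts and endothelium stayed between 0.61 and 3.72, and their summed level was 11.83 to 14.21 on combination arrays, 11.71 to 12.12 on quinacrine arrays, 12.28 to 12.64 on erlotinib arrays and 11.66 on the untreated array. The sum of 14.21 came from the combination 6 h array. That array also had the highest median over all rows (1.64) and the narrowest interquartile range (2.04). The part of these markers in the results was not tested.

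The start regions of the 2 genes that passed the test in at least 1 comparison, BOK and PMAIP1, are shown because their messages moved in opposite directions. Each sequence runs 5′ to 3′ on the gene's plus strand, from 250 bases before to 50 bases after the transcript start, and comes from RefSeq (GRCh38.p14). BOK lies at chr2:241558495-241558794 and PMAIP1 at chr18:59899746-59900045. Capitals mark matches on either strand. The motifs searched were the GC box, written GGGCGG, the CCAAT box, read by its own letters, the cAMP response element, written TGACGTCA, its core alone, written TGACG, the TATA box, written TATAAA, and the E box, written CACGTG.
BOK: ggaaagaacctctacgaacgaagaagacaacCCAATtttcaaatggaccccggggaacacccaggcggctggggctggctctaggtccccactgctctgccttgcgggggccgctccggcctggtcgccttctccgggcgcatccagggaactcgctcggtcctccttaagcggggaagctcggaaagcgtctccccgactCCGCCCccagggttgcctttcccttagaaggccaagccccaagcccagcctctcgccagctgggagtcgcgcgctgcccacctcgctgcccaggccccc
PMAIP1: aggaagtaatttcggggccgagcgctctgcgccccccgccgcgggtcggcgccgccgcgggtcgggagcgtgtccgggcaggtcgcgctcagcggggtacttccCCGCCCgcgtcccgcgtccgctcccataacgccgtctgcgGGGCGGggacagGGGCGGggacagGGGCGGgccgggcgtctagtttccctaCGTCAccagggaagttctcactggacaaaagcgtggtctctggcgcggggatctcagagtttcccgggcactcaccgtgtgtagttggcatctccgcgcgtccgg
The BOK window held 1 GC box and 1 CCAAT box, and the PMAIP1 window held 4 GC boxes and 1 core of the cAMP response element. A full element would also count as a core, and neither window had one. Among 35116 windows of the same length, 45.0% held a GC box, 34.6% a CCAAT box and 24.6% a core. GC content was 66.7% for BOK and 71.3% for PMAIP1, with a median of 58.7% and quartiles of 47.0% and 68.0% over all windows. Of the 10 genes, 9 had at least 1 window in the table (15 windows; MCL1 had none), and their GC content ran between 48.0% and 78.0%. A GC box was found in 12 of the 15 windows, some of which overlap. These matches describe letters and name no bound factor.

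BOK, an effector of the family, was lower on every array with quinacrine than on every array without it. Its level was 6.82, 6.89, 6.97 and 7.51 at 6, 12, 24 and 48 h with the combination and 6.87, 6.68 and 7.08 at 6, 12 and 24 h with quinacrine alone. With erlotinib alone it was 8.40, 8.22, 8.27 and 7.93 at 6, 12, 24 and 48 h, and it was 8.44 on the untreated array. The highest array with quinacrine (7.51, combination 48 h) and the lowest without it (7.93, erlotinib 48 h) were 0.42 apart, and both were 48 h arrays. Of the 5820 tested genes, 6.82% had no overlap between these 7 and 5 arrays (136 higher and 261 lower with quinacrine).

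BOK was 2.34-fold lower with quinacrine, alone or combined, than with erlotinib (log2 difference -1.23, SE 0.16, limma adjusted p = 0.00877), in a model of the 11 treated arrays that held a term for treatment and another for time. In this comparison 6.65% of the tested genes passed, and BOK had the 9th largest fall. It passed as well between combination and erlotinib, where it was 2.23-fold lower (mean 7.05 ± 0.31 (SD over times, n = 4) with the combination and 8.20 ± 0.20 (SD, n = 4) with erlotinib; limma adjusted p = 0.0206). There 3.64% of tested genes passed. Between quinacrine alone (6.88 ± 0.20, SD, n = 3) and erlotinib the difference was -1.30 on the log2 scale (SE 0.20, limma adjusted p = 0.0282), and 1.13% of tested genes passed. These 3 comparisons share the erlotinib arrays. Both single comparisons lost BOK's call in the fit without the level filter (limma adjusted p = 0.0509 for the combination and 0.0663 for quinacrine), and the combination lost it too when only the 8 arrays compared were fitted (adjusted p = 0.104). The pooled comparison kept it without the filter (limma adjusted p = 0.0187, with 0.701% of 22395 genes passing) and lost it without the erlotinib 24 h array (adjusted p = 0.0587).

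**Figure D1:**
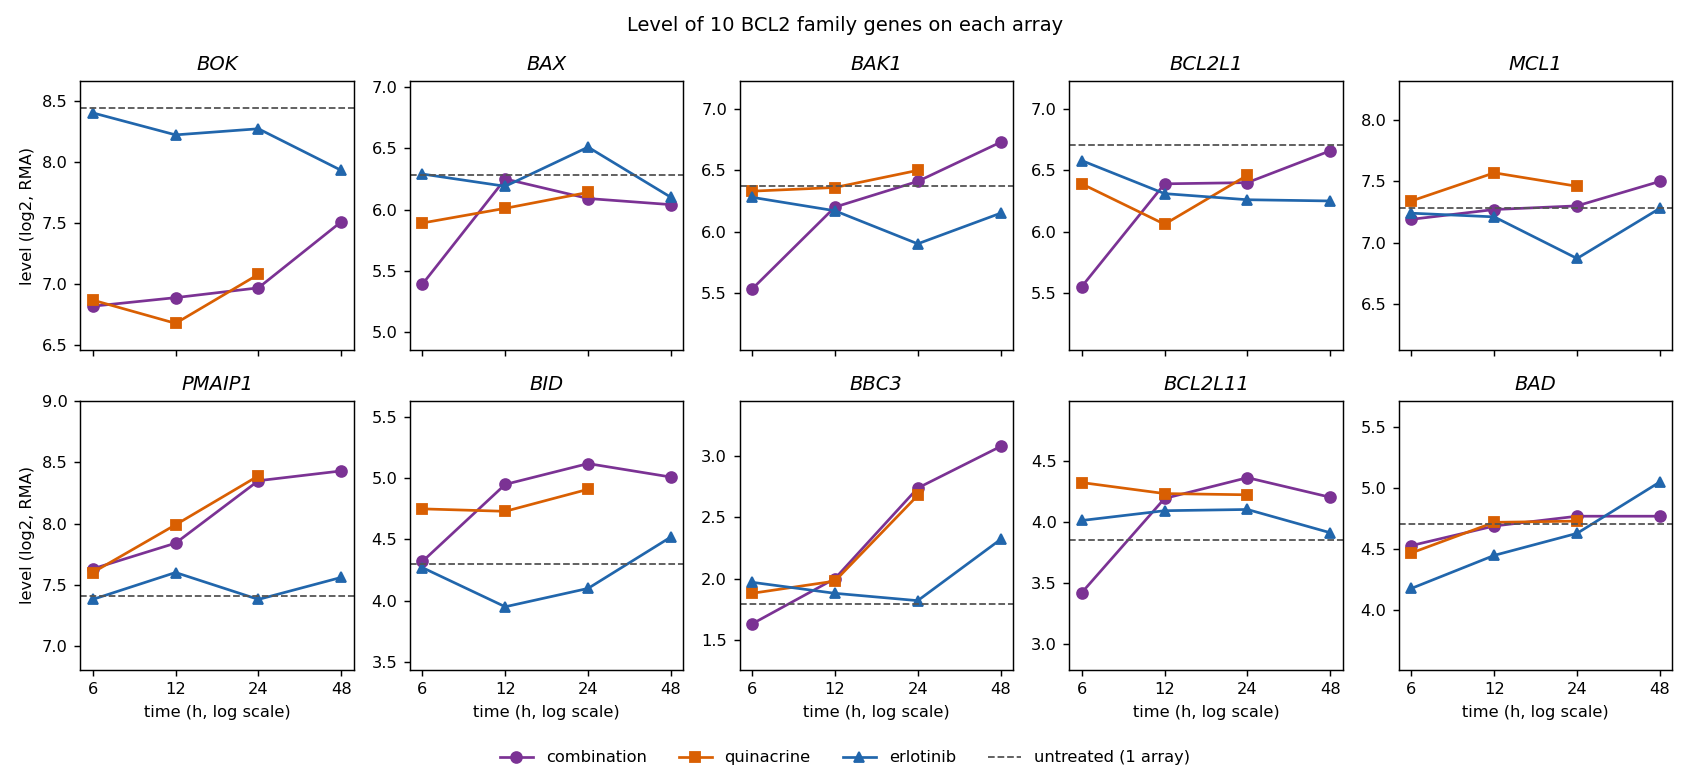
Level (log2, RMA) of each of the 10 genes against time in hours on a log axis. Points are single arrays, purple circles the combination, orange squares quinacrine, blue triangles erlotinib, and the dashed line the untreated array; each panel spans 2.2 log2 units. BOK lies at 6.68 to 7.51 with quinacrine and at 7.93 to 8.44 without it, whereas PMAIP1 and BBC3 are highest at 24 and 48 h on the quinacrine and combination arrays.

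The BOK difference was smallest at 48 h. At matched times the combination differed from erlotinib by -1.58, -1.33, -1.30 and -0.42 on the log2 scale at 6, 12, 24 and 48 h. Quinacrine alone differed from erlotinib by -1.53, -1.54 and -1.19 at 6, 12 and 24 h and has no 48 h array. Against the untreated array BOK differed by -0.93 at 48 h of the combination and by -0.51 at 48 h of erlotinib, against -1.62 and -0.04 at 6 h. The slope per doubling of time was higher with the combination than with erlotinib by 0.35 (SE 0.10, 95% interval 0.11 to 0.59), which did not pass in limma (adjusted p = 0.23, n = 4 times per group; smallest adjusted p of any gene 0.0714). No gene passed that test (0% of 5820), and 770 had an unadjusted p under 0.05, BOK (0.009) among them. The difference in slope was not particular to BOK. It was larger for BAK1 (0.45, 95% interval 0.20 to 0.69) and BCL2L1 (0.44, 95% interval 0.17 to 0.71). It was smaller for PMAIP1 (0.26), BAX (0.20) and MCL1 (0.12). In the fit without the filter it was 0.41 for BBC3, 0.28 for BCL2L11, 0.13 for BID and -0.20 for BAD. The median was 0.30 over the 6 tested members and 0.07 over all tested genes. These slopes include the combination 6 h array, which stood apart from the rest. With 1 array left out, the difference in slope for BOK ranged from 0.21 to 0.45. With the arrays of 6, 12 and 24 h only, which keep the combination 6 h array, it was 0.14.

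No difference in BOK passed when erlotinib was added to quinacrine. Combination and quinacrine differed by 0.14 (SE 0.20, 95% interval -0.31 to 0.59, limma adjusted p = 1), with values of -0.05, 0.21 and -0.11 at 6, 12 and 24 h. With the times that both arms have the difference was 0.02, and with 1 array left out it ranged from 0.02 (without combination 48 h or erlotinib 48 h) to 0.26 (without combination 6 h). No gene passed in that comparison (0%), 47 had an unadjusted p under 0.05, and no member did. Erlotinib alone lay below the untreated array at all 4 times, by -0.04, -0.22, -0.17 and -0.51 on the log2 scale (fit -0.24, 95% interval -0.80 to 0.33, limma adjusted p = 0.999). Again 0% of genes passed, and 144 had an unadjusted p under 0.05.

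Against the single untreated array, which was assumed to vary like the treated ones, BOK was among the strongest differences without passing. The log2 difference was -1.39 with the combination (95% interval -1.96 to -0.82, limma adjusted p = 0.189) and -1.56 with quinacrine (95% interval -2.15 to -0.98, adjusted p = 0.125). BOK ranked 6th and 4th of 5820 genes by p, and 0.0515% and 0.0344% of them passed, 3 and 2 genes. With the 6, 12 and 24 h arrays only, BOK passed in both (-1.55, limma adjusted p = 0.0283, and -1.56, adjusted p = 0.0409), as it did without the combination 48 h array.

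BAX and BAK1, the canonical pore formers, overlapped between arrays with and without quinacrine, and neither passed. BAX was at 5.39, 6.25, 6.09 and 6.04 at 6, 12, 24 and 48 h of the combination and at 5.89, 6.01 and 6.14 at 6, 12 and 24 h of quinacrine. It was at 6.29, 6.19, 6.51 and 6.10 with erlotinib and at 6.28 untreated. The difference between arrays with quinacrine and erlotinib was -0.30 (95% interval -0.62 to 0.02, limma adjusted p = 0.236). BAK1 was at 5.53, 6.20, 6.41 and 6.73 with the combination, 6.33, 6.36 and 6.50 with quinacrine, 6.28, 6.17, 5.90 and 6.15 with erlotinib and 6.37 untreated. Its difference was 0.23 (95% interval -0.19 to 0.64, limma adjusted p = 0.494). The combination 6 h array was the lowest of all 12 for both genes. Without it the combination differed from erlotinib by -0.16 for BAX (limma adjusted p = 0.465; -0.33 with it) and by 0.33 for BAK1 (adjusted p = 0.211; 0.09 with it).

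Neither guardian passed in any of the comparisons, apart from MCL1 under array weights. BCL2L1, which encodes BCL-XL, was at 5.55, 6.39, 6.40 and 6.66 at 6 to 48 h of the combination, 6.39, 6.06 and 6.46 at 6 to 24 h of quinacrine, 6.58, 6.31, 6.26 and 6.25 at 6 to 48 h of erlotinib and 6.71 untreated. The untreated array was thus the highest. Arrays with quinacrine differed from erlotinib arrays by -0.05 (95% interval -0.50 to 0.41, limma adjusted p = 0.918). Without the combination 6 h array, where BCL2L1 lay 1.16 below the untreated array (log2 difference -1.16), the value was 0.07. MCL1, a short-lived guardian, was at 7.19, 7.27, 7.30 and 7.50 with the combination, 7.34, 7.57 and 7.46 with quinacrine, 7.24, 7.21, 6.87 and 7.28 with erlotinib and 7.28 untreated. Its difference of 0.26 (95% interval 0.04 to 0.49) did not pass after adjustment (limma adjusted p = 0.151, unadjusted 0.0273). MCL1 passed with array weights in this comparison (0.33, limma adjusted p = 0.0373) and between quinacrine and erlotinib (0.46, adjusted p = 0.0202), and was 0.17 in this comparison without the erlotinib 24 h array, its lowest. Array weights called 803 of 5820 genes in this comparison and 682 between quinacrine and erlotinib, compared with 387 and 66 as reported. Some array weight fits stopped before convergence. In single arrays, MCL1 with quinacrine alone exceeded MCL1 with erlotinib at all 3 matched times, by 0.10 to 0.59.

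**Figure D2:**
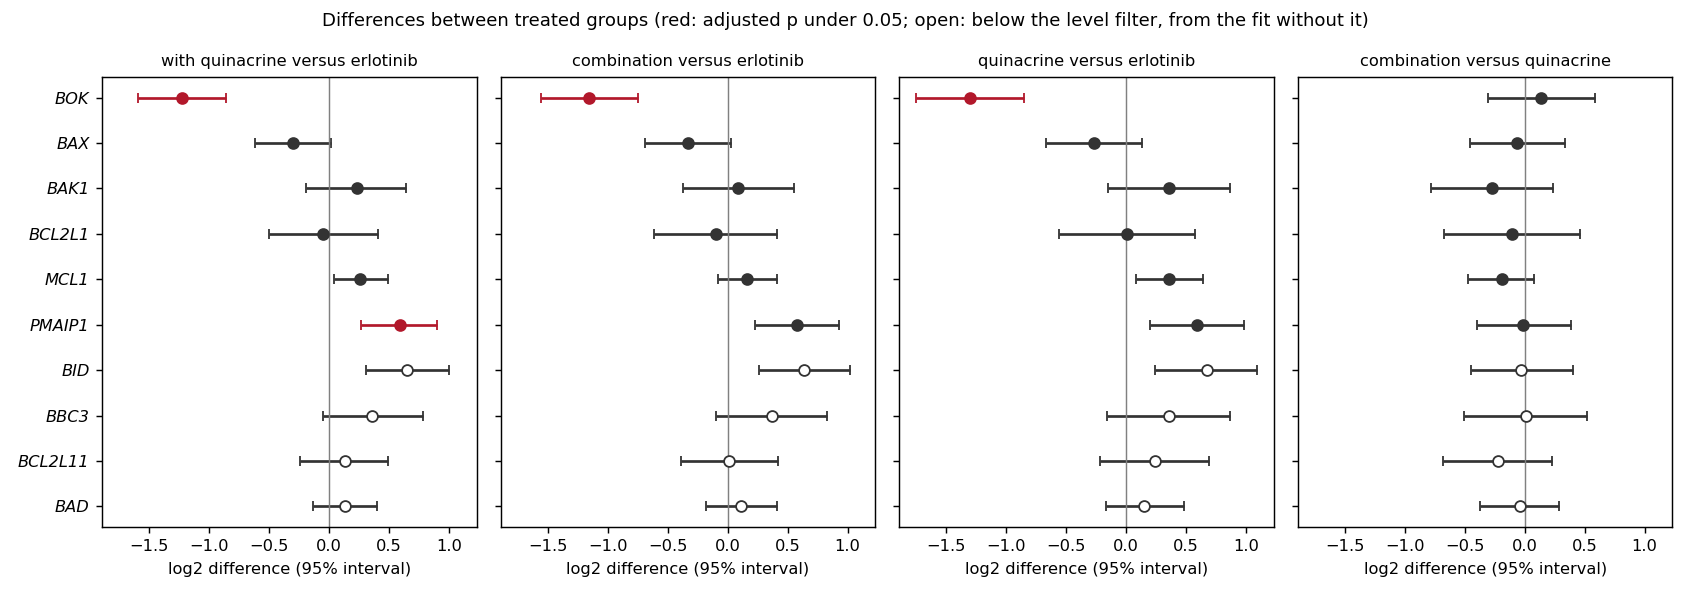
Log2 difference with its 95% interval (x axis) for each of the 10 genes (y axis) in 4 comparisons of treated groups. Red points passed at an adjusted p under 0.05 and open points are genes below the level filter, taken from the fit without it. BOK lies far left in the 3 comparisons with erlotinib, PMAIP1 is red in the pooled comparison alone, and no gene passed between combination and quinacrine.

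PMAIP1, which encodes NOXA, a BH3-only protein that binds MCL1, was higher with quinacrine. Its level was 7.63, 7.84, 8.35 and 8.43 at 6, 12, 24 and 48 h of the combination and 7.60, 7.99 and 8.39 at 6, 12 and 24 h of quinacrine. With erlotinib it was 7.38, 7.60, 7.38 and 7.56 at 6, 12, 24 and 48 h, and it was 7.41 untreated. The 2 sets of arrays met at 7.60, the level on the quinacrine 6 h and the erlotinib 12 h arrays. Arrays with quinacrine were higher than erlotinib arrays by 0.59 on the log2 scale (SE 0.14, limma adjusted p = 0.042), in a comparison where 6.65% of tested genes passed. The call was the weaker of the 2 in the family. It held without the combination 6 h array (limma adjusted p = 0.0285) and without erlotinib 6 h (0.022), and was lost without any 1 of the other 9 treated arrays (adjusted p from 0.0515 without combination 12 h to 0.16 without erlotinib 24 h), without the level filter (0.12), without the time term (0.0914) and with the 6, 12 and 24 h arrays only (0.114). Leaving out either 48 h array is the same fit as 6, 12 and 24 h only, so these losses are not separate. In the single comparisons the same difference did not pass (0.58, limma adjusted p = 0.0819, for the combination and 0.59, adjusted p = 0.128, for quinacrine). The combination passed with median centring (0.62, limma adjusted p = 0.0343), cyclic loess (0.59, adjusted p = 0.0418), a prior variance with trend (0.58, adjusted p = 0.0426), array weights (0.67, adjusted p = 0.0314) and without erlotinib 6 h (0.70, adjusted p = 0.0356), and quinacrine with array weights (0.73, adjusted p = 0.0137). For the combination these settings called 439, 461, 306, 380 and 322 of 5820 genes, in that order, compared with 212 as reported. For quinacrine, array weights called 682, compared with 66 as reported. The added PMAIP1 calls thus came with more calls over all genes.

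The PMAIP1 difference was larger at 24 h than at 6 h in both arms with quinacrine, with 1 array per time. Combination minus erlotinib was 0.25, 0.24, 0.97 and 0.87 at 6, 12, 24 and 48 h, and quinacrine minus erlotinib was 0.22, 0.39 and 1.01 at 6, 12 and 24 h. Erlotinib arrays stayed within -0.03 to 0.19 of the untreated array. Over all 3 arms the level changed by 0.20 per doubling of time (95% interval 0.07 to 0.33, limma adjusted p = 0.0911), and 2.3% of tested genes passed that trend (118 higher and 16 lower with time, but 126 and 105 after median centring of the arrays). The trend passed without the erlotinib 6 h array (0.25, limma adjusted p = 0.0313), where 863 of 5820 genes passed, compared with 134 with that array. Its difference between combination and erlotinib was 0.26 (95% interval 0.04 to 0.48, limma adjusted p = 0.328).

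**Figure D3:**
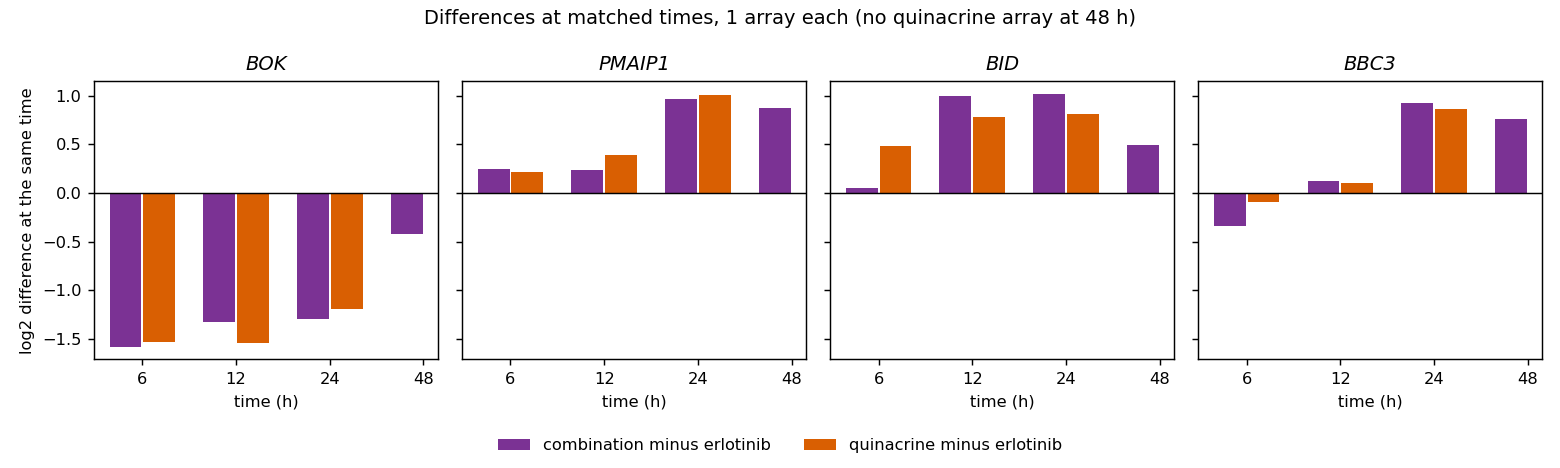
Log2 difference (y axis) from the erlotinib array of the same time (x axis, hours) for 4 genes; purple bars are combination and orange bars quinacrine, each 1 array minus 1 array, with no quinacrine array at 48 h. BOK is lowest at 6 and 12 h (-1.58 to -1.33) and nearest to 0 at 48 h (-0.42), BID is highest at 12 and 24 h, and PMAIP1 and BBC3 are highest at 24 h.

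BID, whose product links death receptors to mitochondria once cleaved by caspase-8, had the largest difference in size after BOK but lay below the level filter. It was at 4.32, 4.95, 5.12 and 5.01 at 6, 12, 24 and 48 h of the combination, 4.75, 4.73 and 4.91 at 6, 12 and 24 h of quinacrine, 4.27, 3.95, 4.10 and 4.52 at 6, 12, 24 and 48 h of erlotinib and 4.30 untreated. At every matched time the arrays with quinacrine were above erlotinib, by 0.05 to 1.02. The difference was 0.65 (SE 0.15, 95% interval 0.31 to 1.00) and did not pass in the fit of all named genes (limma adjusted p = 0.101). BBC3, which encodes PUMA, lay near the array medians of 1.39 to 1.64 at first and was at 1.63, 2.00, 2.74 and 3.08 with the combination, 1.88, 1.98 and 2.68 with quinacrine, 1.97, 1.88, 1.82 and 2.32 with erlotinib and 1.79 untreated. The arrays of 24 and 48 h with quinacrine were thus its 3 highest. Its difference was 0.36 (95% interval -0.05 to 0.78, limma adjusted p = 0.485, fit without the filter), and its change per doubling of time was 0.32 (95% interval 0.15 to 0.49, adjusted p = 0.115).

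BCL2L11 and BAD showed no difference that passed. BCL2L11, which encodes BIM, was at 3.42, 4.19, 4.36 and 4.20 with the combination, 4.32, 4.23 and 4.22 with quinacrine, 4.01, 4.09, 4.10 and 3.91 with erlotinib and 3.85 untreated. All 4 erlotinib arrays were above the untreated array by 0.06 to 0.25, and the fitted difference was 0.18 (95% interval -0.44 to 0.79, limma adjusted p = 0.999, fit without the filter). Quinacrine arrays were above the untreated array by 0.37 to 0.47 (fit 0.41, 95% interval -0.23 to 1.04, limma adjusted p = 0.922). Combination arrays differed from it by -0.43 to 0.51 (fit 0.19, 95% interval -0.42 to 0.81). BAD, a BH3-only protein held inactive by growth factor kinases, was at 4.53, 4.69, 4.77 and 4.77 with the combination, 4.47, 4.72 and 4.73 with quinacrine, 4.18, 4.45, 4.63 and 5.05 with erlotinib and 4.71 untreated. Its erlotinib arrays spanned the widest range, and the change per doubling of time over the 3 arms was 0.17 (95% interval 0.07 to 0.28, limma adjusted p = 0.155, fit without the filter).

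Across the 6 tested members, the median difference between arrays with quinacrine and erlotinib was 0.09, compared with -0.01 over all tested genes. Against the erlotinib arrays, 2 members passed, 1 higher and 1 lower, where 6.65% of tested genes passed. Over all 10 members, in the fit without the filter, the median was 0.18, compared with -0.01 over all 22395 named genes. Of these 10 differences, 7 were positive, and the share of positive differences over all genes was not counted. Among the 45 pairs of members, Pearson's r over the 12 arrays ranged from -0.70 to 0.85 with a median of 0.44, and the 9 pairs with BOK ranged from -0.70 (with BID) to 0.62, with a median of -0.20. The pairs share the same arrays and their scaling, and r is given as a description.

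The genes whose levels followed BOK most closely over the 12 arrays, out of 5820, were C16orf74 (Pearson's r = 0.968), NF2 (0.965), TRABD (0.964), NAE1 (0.962) and RPUSD1 (0.959). NF2 encodes merlin, a tumour suppressor that acts on the Hippo pathway, and NAE1 a subunit of the NEDD8 activating enzyme. Differences between arrays with quinacrine and erlotinib were -0.81 for C16orf74, -0.69 for NF2, -0.60 for TRABD, -0.28 for NAE1 and -1.23 for RPUSD1. All 5 genes, like BOK, lay nearer to the untreated array at 48 h of the combination than at 6 h (RPUSD1 at -0.50 and -1.57). They were chosen for following BOK on these same arrays, so their likeness to it follows from the choice and is no separate result. BOK-AS1, an RNA antisense to BOK, was at 3.28, 3.87, 3.81 and 4.05 with the combination, 3.16, 3.64 and 3.84 with quinacrine, 3.66, 3.53, 4.15 and 3.87 with erlotinib and 4.06 untreated, with overlapping groups. BOK-AS1 was looked up after the BOK values were known.

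**Figure D4:**
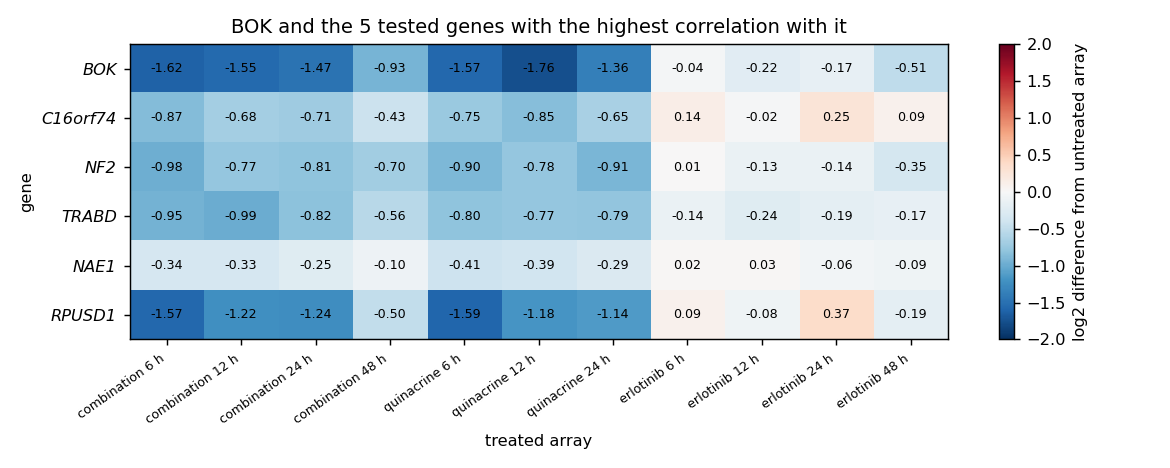
Log2 difference from the untreated array (colour and printed value) for BOK and the 5 genes most like it (rows) on the 11 treated arrays (columns). Arrays with quinacrine are blue throughout, from -1.76 for BOK at 12 h of quinacrine to -0.10 for NAE1 at 48 h of the combination, and erlotinib arrays lie between -0.51 and 0.37.

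Further genes of the apoptosis pathway were taken from 9 lists of 67 genes, of which 59 had a row and 30 passed the level filter. None of the 30 passed between arrays with quinacrine and erlotinib (0 higher, 0 lower, 6 with an unadjusted p under 0.05), and their median difference was -0.05. Over all tested genes 6.65% passed and 23.8% had an unadjusted p under 0.05, so the 6 of 30 lie near the background. The same held for combination versus erlotinib, quinacrine versus erlotinib, combination versus quinacrine and each group versus untreated, with 0 to 5 of the 30 genes at an unadjusted p under 0.05, compared with 0.8% to 20.8% of all tested genes. Among the death receptors, TNFRSF10B (DR5) differed by 0.56 (SE 0.16, limma adjusted p = 0.0724) and TNFRSF10A (DR4) by 0.54 (SE 0.19, adjusted p = 0.124). TNFRSF10B was at 5.66, 6.17, 6.32 and 6.35 with the combination, 6.05, 6.28 and 6.24 with quinacrine, 5.85, 5.21, 5.59 and 5.92 with erlotinib and 5.88 untreated. Of the transcription factors that act on BH3-only genes, ATF4 differed by -0.43 (limma adjusted p = 0.0688) and E2F1 by -0.07 (adjusted p = 0.706). Of the inhibitors of apoptosis and their antagonists, BIRC2 (cIAP1) differed by 0.43 (limma adjusted p = 0.0903) and HTRA2, a mitochondrial protease, by 0.19 (adjusted p = 0.301).

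No partner of BOK passed. VCP, the segregase that extracts proteins from the endoplasmic reticulum, differed by -0.15 (95% interval -0.34 to 0.03), and ITPR3, an inositol trisphosphate receptor, by 0.14 (95% interval -0.14 to 0.43). Of the outer membrane proteins, VDAC3 differed by -0.30 (limma adjusted p = 0.161) and MTCH2, a receptor for BID, by -0.11 (adjusted p = 0.514). BECN1, a BH3-containing autophagy protein, differed by 0.41 (limma adjusted p = 0.136), BNIP3L by -0.10 (adjusted p = 0.606), BCL2L13 by 0.11 (adjusted p = 0.519) and the caspase gene CASP2 by -0.07 (adjusted p = 0.665). Of the ubiquitin enzymes, USP9X, a deubiquitinase of MCL1, differed by 0.12 and MARCHF5 by -0.10 (limma adjusted p = 0.673 and 0.759). HUWE1, a ubiquitin ligase of MCL1, was the 1 list gene that passed in any comparison: its level rose by 0.17 per doubling of time over the 3 arms (SE 0.03, limma adjusted p = 0.0336), and it was at 9.62 at 48 h of the combination and 9.59 at 48 h of erlotinib. In that trend 2.3% of tested genes passed. The HUWE1 call was lost with the 6, 12 and 24 h arrays only (limma adjusted p = 0.236, with no gene passing), without the level filter (0.107), with median centring (0.11, adjusted p = 0.10), with time in hours (0.0724) and without any 1 array other than erlotinib 6 h (adjusted p from 0.0505 to 0.124).

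**Figure D5:**
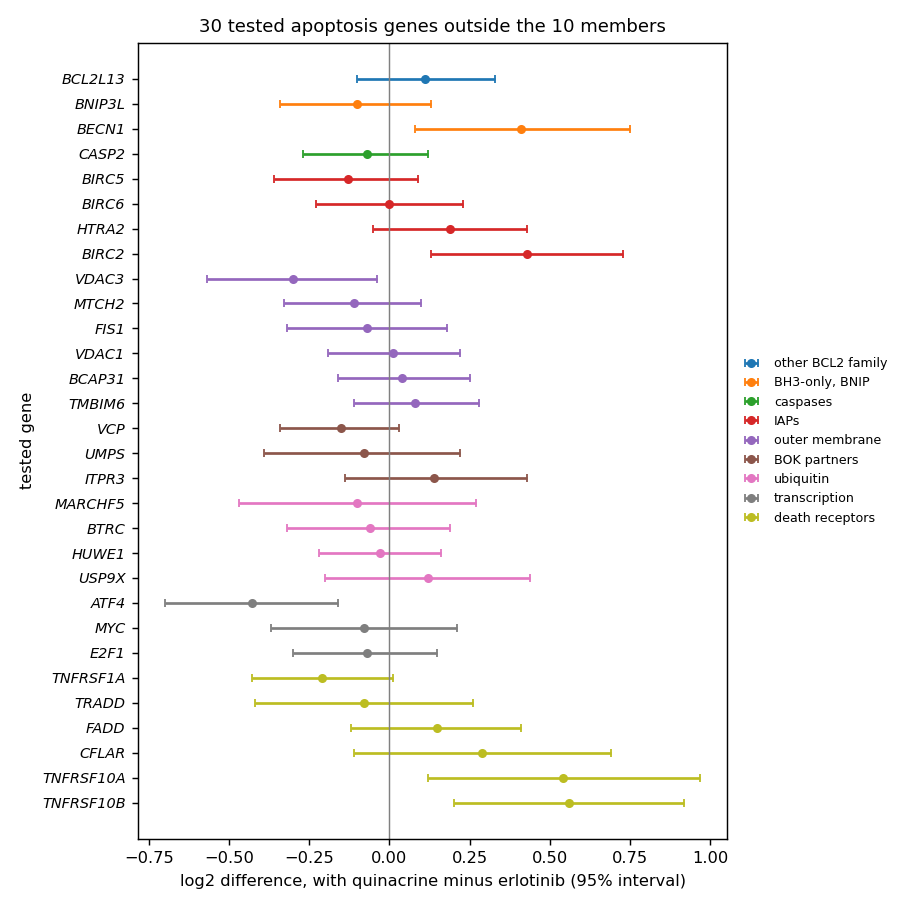
Log2 difference between arrays with quinacrine and erlotinib arrays (x axis, with 95% interval) for the 30 tested genes of the 9 apoptosis lists (y axis), coloured by list. No gene passed at an adjusted p under 0.05; TNFRSF10B lay farthest right at 0.56 and ATF4 farthest left at -0.43.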

How the data were processed

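RNA of 12 samples was measured on Affymetrix Human Gene 2.1 ST arrays. Levels are log2 values as deposited: per the submitters' processing notes and design text, the authors used RMA in Affymetrix Expression Console 1.30, which includes quantile normalization. The interquartile range of the deposited rows still ran from 2.04 to 2.88 over arrays. Every value column was matched to a sample. Of 53617 rows, 23871 had 1 gene symbol, 1842 several and 27904 none. Symbols were updated by Entrez ID (22569 matched, 90 changed). This gave 22395 genes, each by its row of highest mean. The 5820 genes with a mean of at least 5 were tested (limma 3.58.1, R 4.3.3), Benjamini-Hochberg adjusted over all of them, with a threshold of 0.05.

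Treated groups were compared with terms for treatment and time (11 arrays, 5 residual degrees of freedom, which measure departure from additivity, not replicate error). Comparisons with the untreated array used group means of 12 arrays and no time term. Trends were slopes per doubling of time, in hours. Arrays carry no read depth, and their number limits the precision. The members and gene lists were chosen with earlier results of these data known. Named genes were all members, list genes that passed, the 2 genes of smallest p per list in the pooled comparison and the 5 genes most correlated with BOK. On simulated data with 200 of 5820 genes changed, the pooled comparison of arrays with quinacrine and erlotinib recovered 97.5% at 2-fold and 73% at 1.5-fold. At 1.5-fold, recovery was 52% for combination versus erlotinib and 25% each for quinacrine versus erlotinib and combination versus quinacrine. The simulated noise was normal and independent for each gene and array. The simulation held no effect of time, no shift of a whole array and a constant treatment effect. These shares therefore do not measure recovery on the real arrays. Alternatives covered the filter, rows, scaling, prior variance, array weights, times, the time term, the scale of time, arrays in the fit and each array left out.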

Additional observations from a re-analysis of the deposited data

Results flagged for a closer look

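MCL1 on the erlotinib 24 h array was at 6.87, apart from the other 3 erlotinib arrays at 7.21 to 7.28. The gap to the nearest of them, relative to the whole range of the 4 arrays, just exceeded the limit used for groups of 4 (Dixon). Chance marks about 1 in 20 groups in this way, and 20 groups (10 genes, erlotinib and combination) were examined. The arrays are different times, so a change with time counts here as a distance.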

How the results depend on the processing

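In the pooled comparison (arrays with quinacrine, alone or combined, versus erlotinib) BOK ranged from -1.41 to -1.11 over 19 alternatives (adjusted p from 0.0016 to 0.0587) and lost the call only without erlotinib 24 h. Between treated groups, leaving out combination 48 h or erlotinib 48 h is the same fit as 6, 12 and 24 h only. Those alternatives are therefore not separate. Between combination and erlotinib the call was lost with no filter (-1.16) and with only the 2 groups compared (-1.16), and between quinacrine and erlotinib with no filter (-1.30). It was lost too without any 1 of erlotinib 12 h or 24 h, quinacrine 24 h, combination 12 h or 24 h in the first, and of erlotinib 12 h or 24 h, any quinacrine array, combination 12 h or 24 h in the second. Against untreated, BOK gained the call for quinacrine with median centring (-1.56), array weights (-1.67) and 6, 12 and 24 h only (-1.56), and for combination with array weights (-1.43) and 6, 12 and 24 h only (-1.55). Members called in combination versus erlotinib (1) became 0 with no filter and with only the 2 groups, and 2 with median centring, cyclic loess, a prior variance with trend and array weights (PMAIP1 added). In quinacrine versus erlotinib (1) they became 0 with no filter and 3 with array weights (PMAIP1 and MCL1 added), and in the pooled comparison (2) 1 with no filter, 6, 12 and 24 h only or no time term, and 3 with array weights (MCL1 added). For quinacrine versus untreated (0) they became 1 with median centring, array weights or 6, 12 and 24 h only, and for combination versus untreated (0) 2 with array weights and 1 with 6, 12 and 24 h only. Array weights raised the calls over all 5820 genes too, to 380, 682, 803, 494 and 809 in these 5 comparisons. For combination versus erlotinib, 439 genes were called with median centring, 461 with cyclic loess and 306 with a prior variance with trend. With no filter, 51, 28 and 157 of 22395 genes were called for combination versus erlotinib, quinacrine versus erlotinib and the pooled comparison. With 1 array left out, members called ranged from 0 to 2 in combination versus erlotinib and in the pooled comparison, and from 0 to 1 in quinacrine versus erlotinib, quinacrine versus untreated, combination versus untreated and the trend. With array weights, the sign turned for BCL2L1 in combination versus erlotinib (0.10), BCL2L1 in quinacrine versus erlotinib (-0.04), BCL2L1 in combination versus quinacrine (0.15), BAX in combination versus quinacrine (0.09), BCL2L1 in the pooled comparison (0.03), BAX in erlotinib versus untreated (0.02), BAK1 in combination versus untreated (0.03), BAX in the trend difference (-0.05). With 6, 12 and 24 h only, the sign turned for BAK1 in combination versus erlotinib (-0.07), BCL2L1 in quinacrine versus erlotinib (-0.08), BAX in erlotinib versus untreated (0.05), MCL1 in combination versus untreated (-0.03), MCL1 in the trend (-0.02). With no time term, the sign turned for BCL2L1 in quinacrine versus erlotinib (-0.05), PMAIP1 in combination versus quinacrine (0.07). With only the 2 groups compared, the sign turned for BCL2L1 in quinacrine versus erlotinib (-0.08). With median centring, the sign turned for PMAIP1 in combination versus quinacrine (0.03), BOK in the trend (-0.02), MCL1 in the trend (-0.03). With cyclic loess, the sign turned for PMAIP1 in combination versus quinacrine (0.02). With 1 array left out, values ranged as follows: BCL2L1 in combination versus erlotinib -0.27 to 0.19, BOK in combination versus erlotinib -1.40 to -1.05, BAK1 in combination versus erlotinib -0.07 to 0.33, BOK in quinacrine versus erlotinib -1.42 to -1.17, BCL2L1 in quinacrine versus erlotinib -0.13 to 0.23, PMAIP1 in combination versus quinacrine -0.11 to 0.11, BCL2L1 in combination versus quinacrine -0.28 to 0.23, BAX in combination versus quinacrine -0.20 to 0.14, BAK1 in combination versus quinacrine -0.39 to 0.01, BCL2L1 in the pooled comparison -0.17 to 0.16, BOK in the pooled comparison -1.41 to -1.11, BAX in erlotinib versus untreated -0.09 to 0.05, BAK1 in quinacrine versus untreated -0.03 to 0.06, BOK in quinacrine versus untreated -1.67 to -1.47, BAK1 in combination versus untreated -0.32 to 0.08, BOK in combination versus untreated -1.55 to -1.32, MCL1 in combination versus untreated -0.03 to 0.08, BCL2L1 in the trend -0.02 to 0.19, BAX in the trend -0.01 to 0.15, BOK in the trend -0.04 to 0.13, BAX in the trend difference -0.08 to 0.37. Genes called over all alternatives numbered 6 to 461 (212 as reported) for combination versus erlotinib, 0 to 682 (66) for quinacrine versus erlotinib, 25 to 803 (387) for the pooled comparison, 0 to 494 (2) and 0 to 809 (3) for quinacrine and combination versus untreated, 0 to 863 (134) for the trend, 0 to 24 (0) for its difference and 0 to 1 (0) for erlotinib versus untreated. Median centring turned the split of higher and lower calls to 223 and 216 for combination versus erlotinib (83 and 129 as reported). Some array weight fits stopped before convergence, and their values carry that limit. The causes were not tested. The arrays of different treatments were matched by time, which was a term in the fit, and the labels give no replicate numbers.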
